A study of Mus musculus with 16 samples.

Results

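Langerhans cells and antigen presentation by MHC class II in the epidermis of aged mice were followed through 10 genes: Cd207, Cd74, H2-Aa, H2-Ab1, H2-Eb1, H2-DMa, H2-DMb1, Ciita, Cd86 and Itgax. They were taken by name, through their Entrez identifiers, and all 10 were found among the 27179 genes of the count table. Epidermal cells of 8 C57bl/6J mice were profiled by bulk RNA sequencing of polyadenylated RNA. All mice were 73 weeks old when treatment began and received intraperitoneal injections 3 times a week for 12 weeks. Of these mice 4 were given control IgG and 4 a mixture of antibodies that neutralize both cytokines, IL-17A as well as IL-17F, here called anti-IL-17A/F. The antibodies acted systemically, so they were not directed to the epidermis alone, and both groups were aged, with no young or untreated mice among these samples.

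Langerhans cells are the dendritic cells that live among keratinocytes in the epidermis. They carry langerin, the product of Cd207, and display peptides on MHC class II molecules to T cells. A class II molecule is a pair of an alpha and a beta chain, which in this strain is I-A, made from H2-Aa and H2-Ab1. The invariant chain, made from Cd74, fills the peptide groove during assembly, and the H2-DM pair, made from H2-DMa and H2-DMb1, exchanges its remnant for a peptide. Ciita encodes the coactivator that switches class II genes on through proteins bound to their promoters. CD86 is a co-stimulatory ligand for T cells, and Itgax encodes CD11c, an integrin chain of dendritic cells.

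Class II promoters share a module of short elements, among them the X box, bound by the RFX complex, and the Y box, bound by NF-Y. The Y box core ATTGG was searched, together with a 10-base X box core, which is the longest run of capitals in the H2-Eb1 sequence printed here with any base allowed at the sixth position. Both were searched on both strands in the RefSeq promoter windows of build GRCm38.p6, which reach from 250 bases before a gene's start to 50 after it. Windows were matched for 6 of the 10 genes: Cd207, Itgax, H2-Aa, H2-Eb1, H2-DMa and H2-DMb1. The sequences printed here show where these cores lie in class II genes whose levels are compared below, from 140 to 21 bases before the start, 5′ to 3′ on the gene's strand, with each match to either core in capitals.
H2-Aa (chr17:34287844-34287963, minus strand): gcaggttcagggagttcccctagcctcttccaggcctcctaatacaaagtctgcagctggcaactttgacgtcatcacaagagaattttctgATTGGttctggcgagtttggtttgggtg
H2-Eb1 (chr17:34305727-34305846, plus strand): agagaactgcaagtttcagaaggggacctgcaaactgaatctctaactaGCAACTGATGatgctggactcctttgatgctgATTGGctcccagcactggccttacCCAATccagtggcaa
H2-DMb1 (chr17:34153051-34153170, plus strand): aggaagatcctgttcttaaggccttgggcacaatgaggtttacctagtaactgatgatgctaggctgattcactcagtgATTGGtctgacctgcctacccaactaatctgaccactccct
H2-DMb2 (chr17:34145109-34145228, plus strand): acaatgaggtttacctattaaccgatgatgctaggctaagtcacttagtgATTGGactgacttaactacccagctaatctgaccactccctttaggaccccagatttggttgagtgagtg

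The Y box core began 48 bases before the start of H2-Aa, 59 before that of H2-Eb1 and 61 before that of H2-DMb1. In H2-DMb2, a neighbouring gene for another H2-DM beta chain, it began 90 bases before the start. H2-Eb1 held a second match on the opposite strand, 35 bases before the start, printed there as CCAAT. Of all 32851 promoter windows, 12289 (37.4%) held ATTGG, so a single match is common. In the 4 printed windows, and in those of H2-Oa, H2-Ob and H2-Eb2, the core stood within the longer stretch TGATTGG, which was noticed in these sequences and then counted in 7.82% of all windows. The X box core was found in 63 of all windows (0.192%), among them H2-Eb1, where it began 91 bases before the start, and H2-Eb2, where it began 132 bases before it. It was not found in the windows of H2-Aa, H2-DMa, H2-DMb1, H2-DMb2, H2-Oa, H2-Ob and Itgax. As this core is spelled as in H2-Eb1 apart from the sixth position, its match there does not set H2-Eb1 apart from the other printed sequences. Only exact matches were counted, so a window without this core was not shown to lack an X box. The Cd207 window held neither core, that of Itgax held ATTGG 178 bases before the start, and of the pair of H2-DMa windows 1 held ATTGG, 198 bases before its start. These matches are descriptions of the sequence.

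Totals were 42816157 to 53721153 counts per mouse. The 10 genes together took 0.0174% to 0.0527% of the counts of a mouse, and 7 keratinocyte genes summed to 29683 to 32342 CPM (counts per 1000000 of the library total scaled by its TMM factor), the genes of the cells that the label names. The counts behind the levels ran from 3284 to 10573 per mouse for Cd74 and from 25 to 126 for Cd86, so counting error was small for the class II chains and larger for Cd86.

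Compared per length, as CPM per kilobase of exon averaged over the 8 mice, the order ran from the invariant chain to the co-stimulatory ligand. Cd74 stood highest at 82.2 ± 34.9 CPM per kilobase (SD, n = 8), followed by H2-Aa at 47.3 ± 19.5, H2-Ab1 at 40.8 ± 19.0 and H2-Eb1 at 29.6 ± 11.8. H2-DMb1 at 8.92 ± 1.02, Cd207 at 7.01 ± 3.85 and H2-DMa at 4.17 ± 1.61 CPM per kilobase came next. Itgax at 0.753 ± 0.267, Ciita at 0.563 ± 0.201 and Cd86 at 0.503 ± 0.228 CPM per kilobase were lowest. Most neighbours in this order kept their place in 8 of 8 mice, although the spread between mice was wide. The exceptions were H2-DMb1, above Cd207 in 6 of 8 mice, and Ciita, above Cd86 in 5 of 8, so these neighbours were not separated beyond their spread.

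Cd207, the defining gene of Langerhans cells in the epidermis, lies on chromosome 6 of GRCm38 (83671207 to 83677857, minus strand). It was at 5.31, 6.98, 21.6 and 17.7 CPM in control mice 1 to 4, and at 9.44, 6.86, 10.1 and 7.30 CPM in mice 1 to 4 given anti-IL-17A/F. Control mice 1 and 2 lay at the low end and control mice 3 and 4 at the high end, with every anti-IL-17A/F mouse between the lowest and the highest control mouse. The control mice averaged 12.9 ± 8.01 CPM and the anti-IL-17A/F mice 8.44 ± 1.60 CPM (SD, n = 4 each). The log2 fold change was -0.61 (SE 0.41), which did not pass the test (edgeR, adjusted p = 0.984). In bulk RNA, fewer cells of a type and less RNA per cell cannot be told apart.

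The chains of the class II molecule followed a similar order of mice. Their genes lie in the MHC on chromosome 17 of GRCm38, H2-Ab1 from 34263227 to 34269418 on the plus strand, H2-Aa from 34282744 to 34287823 on the minus strand and H2-Eb1 from 34305867 to 34316674 on the plus strand. H2-Aa, the alpha chain of I-A, was at 28.9, 39.9, 92.2 and 79.4 CPM in control mice 1 to 4 and at 54.8, 42.9, 53.0 and 35.7 CPM in mice 1 to 4 given anti-IL-17A/F. H2-Ab1, the beta chain of I-A, was at 26.4, 34.4, 90.1 and 77.6 CPM in the control mice and at 49.9, 37.8, 48.8 and 30.3 CPM in the mice given anti-IL-17A/F. H2-Eb1, the beta chain of I-E, was at 28.6, 35.1, 84.7 and 71.2 CPM in the control mice and at 51.1, 42.0, 50.5 and 31.8 CPM in the mice given anti-IL-17A/F. In all 3 genes the groups overlapped, control mouse 1 was lowest and control mouse 3 highest. The log2 fold changes were -0.37 (SE 0.34), -0.45 (SE 0.37) and -0.32 (SE 0.33), and none passed the test (edgeR, adjusted p = 0.984 each).

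The alpha chain partner of H2-Eb1 was not detected. H2-Ea had 0 counts in all 8 mice, which allows a level of up to 0.0074 CPM over the 404656455 counts of the 8 mice together (3 counts, counting error only). C57BL/6 mice are known to lack the I-E alpha chain. H2-Ea was picked out after its values were seen.

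Cd74, which encodes the invariant chain and lies on chromosome 18, had the highest level of the 10 genes. It was at 65.0, 79.7, 202 and 177 CPM in control mice 1 to 4 and at 120.3, 93.7, 117 and 76.8 CPM in mice 1 to 4 given anti-IL-17A/F. Control mice 3 and 4 again stood above all others and the groups overlapped, with a log2 fold change of -0.36 (SE 0.35, edgeR adjusted p = 0.984). Within each mouse the class II transcripts stood in nearly fixed proportion. The ratio of H2-Ab1 to H2-Aa, in CPM, ranged from 0.850 to 0.977 over the 8 mice, that of Cd74 to H2-Ab1 from 2.24 to 2.53 and that of H2-Eb1 to H2-Ab1 from 0.917 to 1.11. H2-Ab1 itself spanned 3.42-fold between its lowest and highest mouse.

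**Figure D1:**
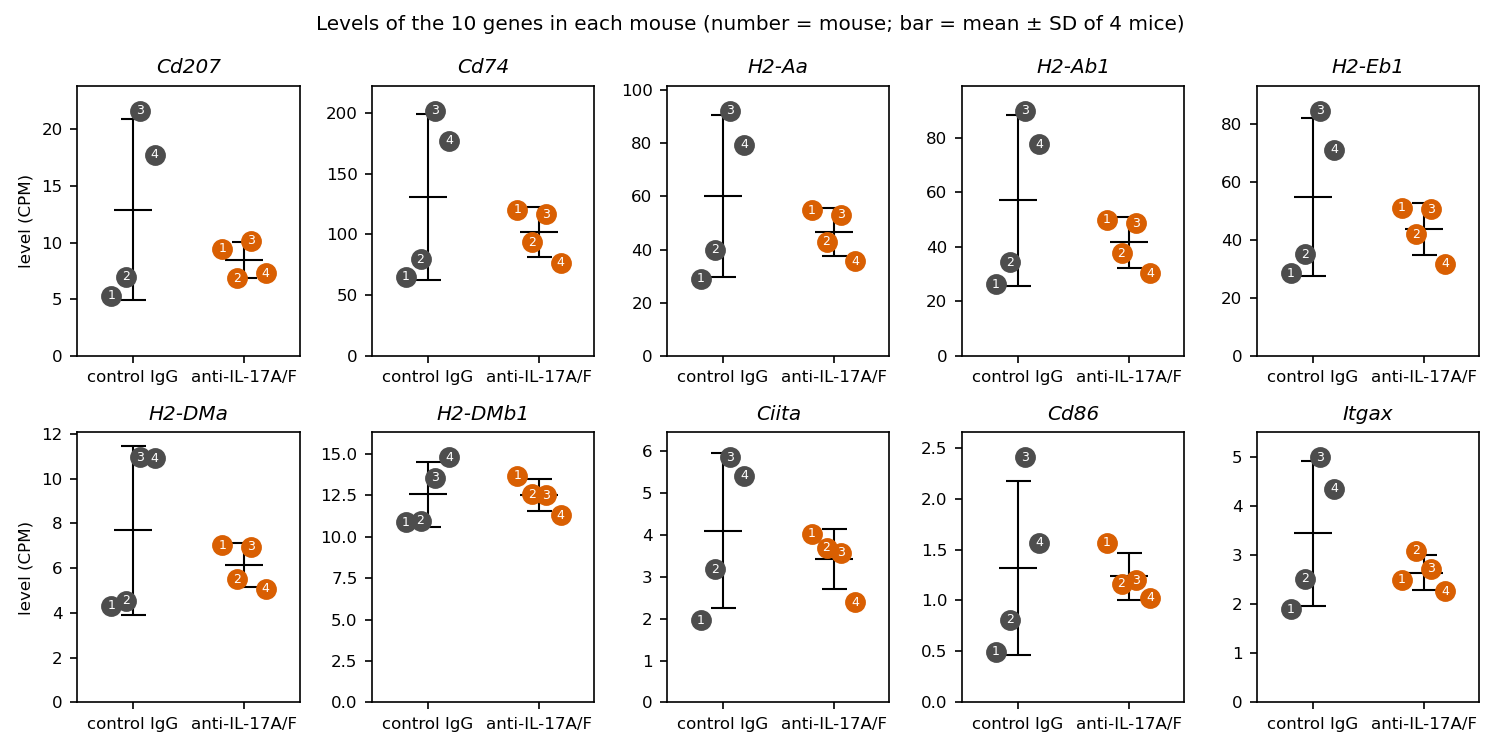
Level in CPM (vertical axes, from 0) of each of the 10 genes in the 4 control IgG mice (grey) and the 4 anti-IL-17A/F mice (orange), numbered by mouse, with the mean and SD of each group. Control mouse 1 is lowest for all 10 genes, control mouse 3 is highest for 9 of them, and the anti-IL-17A/F mice lie inside the range of the control mice for all 10.

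The pair of H2-DM genes, which load peptide onto class II molecules, differed in how much they varied. H2-DMa was at 4.32, 4.55, 11.0 and 10.9 CPM in control mice 1 to 4 and at 7.03, 5.51, 6.97 and 5.09 CPM in mice 1 to 4 given anti-IL-17A/F. H2-DMb1 was at 10.9, 10.9, 13.6 and 14.8 CPM in the control mice and at 13.7, 12.6, 12.5 and 11.3 CPM in the mice given anti-IL-17A/F. H2-DMa thus spanned 2.54-fold between mice and H2-DMb1 only 1.36-fold, and the ratio of H2-DMa to H2-DMb1 ran from 0.398 in control mouse 1 to 0.808 in control mouse 3. The median span of the 14076 genes averaging at least 1 CPM was 1.28-fold, and 38.2% of them spanned as much as H2-DMb1 or more. The log2 fold changes were -0.32 (SE 0.33) for H2-DMa and -0.0052 (SE 0.12) for H2-DMb1, with overlapping groups and no call (edgeR, adjusted p = 0.984 and 0.999).

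H2-DMb2 encodes another H2-DM beta chain, and 27.2% of the 50-base windows of H2-DMb1 transcripts also occur in H2-DMb2, so reads from there would be lost from both genes and their split is uncertain. H2-DMb2 had 18, 36, 87 and 73 counts in control mice 1 to 4 and 43, 28, 64 and 37 counts in anti-IL-17A/F mice 1 to 4. Its lowest mouse was control mouse 1 and its highest control mouse 3, 4.66-fold apart in CPM, with a log2 fold change of -0.27 (SE 0.44, edgeR adjusted p = 0.984). Both beta chain genes hold the Y box core in the promoters printed above. Of the other genes, 9.61% of the windows of Itgax are shared with Itgad and 0.239% of those of Ciita with Dexi, and the other 7 genes share none with an annotated transcript of another gene.

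Ciita, on chromosome 16, encodes the coactivator that class II transcription depends on. It was at 1.96, 3.18, 5.86 and 5.42 CPM in control mice 1 to 4 and at 4.03, 3.70, 3.57 and 2.40 CPM in mice 1 to 4 given anti-IL-17A/F. The groups overlapped and the 2.99-fold span over mice was close to those of Cd74 (3.11-fold) and H2-Aa (3.19-fold). The log2 fold change was -0.26 (SE 0.33, edgeR adjusted p = 0.984). The ratio of Ciita to H2-Ab1 was less steady than those among the class II chains, at 0.0651 to 0.0979. Dexi lies over 1.66% of the Ciita exons on the opposite strand. How the counting treated strand is not stated, so reads of the pair may not be separated there.

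Cd86, on chromosome 16, was at 0.495, 0.809, 2.41 and 1.56 CPM in control mice 1 to 4 and at 1.56, 1.16, 1.197 and 1.026 CPM in mice 1 to 4 given anti-IL-17A/F. It had the widest span of the 10 genes, 4.86-fold, on the lowest counts. Itgax, on chromosome 7, was at 1.90, 2.52, 5.01 and 4.36 CPM in the control mice and at 2.51, 3.09, 2.73 and 2.26 CPM in the mice given anti-IL-17A/F. Control mouse 3 was the highest and control mouse 1 the lowest for both genes, and the groups overlapped. The log2 fold change was -0.09 (SE 0.43, edgeR adjusted p = 0.993) for Cd86 and -0.38 (SE 0.29, edgeR adjusted p = 0.984) for Itgax.

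The study compared the groups to learn how blocking IL-17A and IL-17F affects aged epidermal cells. Of the 10 genes, all of which passed the filter on low counts, 10 had a log2 fold change below 0, against 49.9% of the 16335 genes tested. The median was -0.34 for the 10 genes and 0.000087 for all genes tested. None was called at an adjusted p below 0.1 (0% of all genes tested), 0 had an unadjusted p below 0.05 (4.03% of all genes tested), and 0 had groups that did not overlap (2.42%). The 10 genes moved together over the same 8 mice, so their shared direction is not 10 separate observations. Across all genes edgeR called 0, with 658 at an unadjusted p below 0.05, limma-voom called 0 and DESeq2 called 9, none of them among the 10 genes, whose lowest adjusted p under any setting was 0.746.

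The size of the difference rested on single control mice. The median of the 10 genes was -0.08 with control mouse 3 left out and -0.56 with control mouse 1 left out. With control mouse 3 left out, the log2 fold change of Cd207 was -0.24 and that of Cd86 turned to 0.37, and with control mouse 1 left out that of Cd207 was -0.87. Leaving out control mouse 1, the lowest mouse for all 10 genes, gave the lowest value for each of them, which follows from its level. The spread within groups also differed in size, with a larger SD in the control than in the anti-IL-17A/F mice for 10 of 10 genes, which was not tested. These genes moved together, so this is not 10 separate observations, and the share over all genes was not counted. Outside the 10 genes the control SD was larger for Ptprc (15.9 against 3.83 CPM) and smaller for H2-K1 (117 against 143 CPM).

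**Figure D2:**
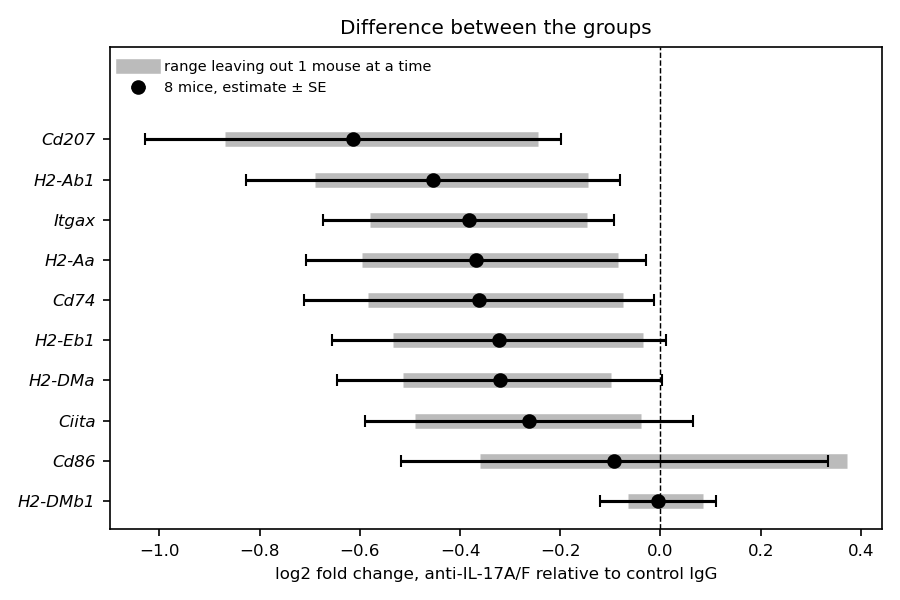
Log2 fold change of each of the 10 genes in the treated against the control IgG mice (horizontal axis), with the estimate from 8 mice and its SE in black and the range over leaving out 1 mouse at a time in grey. Cd207 has the lowest value, -0.61, H2-DMb1 lies at 0, and the grey bars of Cd86 and H2-DMb1 cross 0.

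To ask whether class II expression differed beyond the level of Langerhans cell RNA, H2-Ab1 was expressed relative to Cd207 in each mouse, as the log2 ratio of CPM with 0.5 added to each. The log2 ratio was 2.21, 2.22, 2.03 and 2.10 in control mice 1 to 4 and 2.34, 2.38, 2.21 and 1.98 in anti-IL-17A/F mice 1 to 4. The groups overlapped, with anti-IL-17A/F mouse 4 lowest and anti-IL-17A/F mouse 2 highest. The means were 2.14 ± 0.09 and 2.23 ± 0.18 (SD, n = 4 each), a difference of 0.09, with p = 0.371 in a two-sided exact permutation test, for which the smallest possible p is 0.0286. In CPM, H2-Ab1 was 4.15 to 5.51 times Cd207, a span of 1.33-fold, while Cd207 itself spanned 4.08-fold.

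The level of the 10 genes moved together over the 8 mice, as correlations of log2 CPM show. They are descriptions over 8 libraries, in which the genes of a mouse share its library, depth and mix of cells, and carry no test. With Cd207, Pearson r was 0.98 for Cd74, H2-Aa, H2-Ab1 and H2-DMa, 0.96 for H2-Eb1, 0.92 for Itgax, 0.90 for Ciita, 0.88 for Cd86 and 0.82 for H2-DMb1. Spearman rho with Cd207 was 0.88 for the class II chains and Cd74, 0.90 for H2-DMa, 0.86 for Cd86, 0.79 for Ciita, 0.71 for H2-DMb1 and 0.69 for Itgax. After subtracting each group's mean the values lay between 0.86, for H2-DMb1, and 0.98, to which the control mice, with their wider spread, contributed most. The relation did not hold for every gene in each group, since of the mice given anti-IL-17A/F the one lowest in Cd207, mouse 2, was the highest in Itgax. Among Cd74, H2-Aa, H2-Ab1, H2-Eb1 and H2-DMa the 10 pairs had r from 0.97 to 1.00 and rho from 0.98 to 1.

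The relation rested in part on control mice 3 and 4, the pair farthest from the median of Cd207. Without them r with Cd207 was 0.93 for Cd74, H2-Ab1 and H2-DMa, 0.94 for H2-Aa and 0.89 for H2-Eb1, 0.86 for Cd86, but 0.76 for Ciita, 0.74 for H2-DMb1 and 0.53 for Itgax. Over the 13456 named genes averaging at least 1 CPM the median r with Cd207 was -0.0044, and 157 of them (1.17%) reached 0.9. Of the other 9 genes, 6 reached 0.9, with Ciita just under it. The slope on log2 axes was 0.88 for H2-Ab1 and 0.19 for H2-DMb1 per doubling of Cd207.

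**Figure D3:**
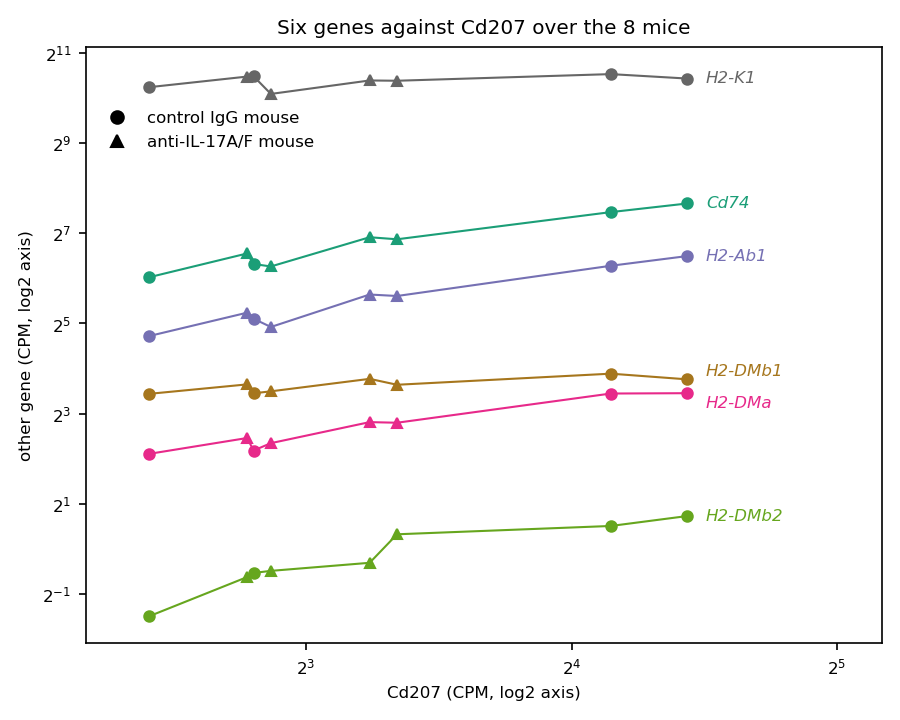
Level of Cd74, H2-Ab1, H2-DMb1, H2-DMa, H2-DMb2 and the class I gene H2-K1 (vertical axis, CPM, log2 scale) against Cd207 (horizontal axis, CPM, log2 scale) in the 4 control IgG (circles) and 4 anti-IL-17A/F mice (triangles), joined in order of Cd207. Cd74 and H2-Ab1 follow Cd207, with r = 0.98 each, while H2-DMb1, spanning 1.36-fold, and H2-K1, also spanning 1.36-fold, stay nearly level.

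The genes outside the 10 whose levels were most like that of Cd207, by Pearson r over the 8 mice, were mostly genes of leukocytes. They were Cd52 and Fyb (r = 0.99 each), Mmp9 (0.99), Ctss, Tyrobp, Gpr141, Inpp5d, Csf1r and Lcp1 (all 0.98) and Tnfaip2 (0.97). Fyb, Tyrobp and Inpp5d act in signalling of blood cells, Lcp1 bundles actin in them, and Mmp9 is a gelatinase. Csf1r encodes the receptor on which Langerhans cells depend, through the ligand IL-34, and was at 11.9 ± 6.81 CPM over the control mice and 8.29 ± 1.72 CPM over those given anti-IL-17A/F (SD, n = 4 each). Its log2 fold change of -0.52 (SE 0.38) did not pass the test (edgeR, adjusted p = 0.984).

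Most like the mean of H2-Aa, H2-Ab1 and H2-Eb1 were Ctss and P2rx2 (r = 0.99 each), F830045P16Rik, Mir5107 and Mmp9 (0.99 each). Cathepsin S, the product of Ctss, cleaves the invariant chain, and P2rx2 encodes an ATP-gated ion channel. Ctss was at 5.65 ± 2.87 CPM over the control mice and 4.28 ± 0.744 CPM over those given anti-IL-17A/F (SD, n = 4 each), with the rank order of mice the same as that of the class II mean (rho = 1). Mir5107 lies inside an exon of Cd74, over 0.847% of its exonic length, and a read there was counted for both genes. Its 86 to 319 counts per mouse, 2.60% to 3.51% of those of Cd74, therefore share reads with that gene.

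Genes that act before and after the class II chains were described from lists. Bulk RNA does not show which cells made their transcripts, so these levels are not those of Langerhans cells alone. The 7 promoter factors of the RFX and NF-Y complexes and Creb1 were lower in 2 and higher in 5 cases, none called, with a median log2 fold change of 0.03. Their sum spanned 1.13-fold over mice, and r with Cd207 ran from -0.64 to 0.31. Nfyb was at 33.7 ± 1.36 CPM over the control mice and 36.2 ± 1.48 CPM over those given anti-IL-17A/F, and Creb1 at 89.5 ± 8.16 and 97.4 ± 5.24 CPM (SD, n = 4 each, edgeR adjusted p = 0.984 for both). Rfx5, which binds the X box, was at 40.0 ± 1.79 and 41.8 ± 3.95 CPM. Each of the 7 spanned 1.09-fold to 1.25-fold over the mice, against 2.96-fold to 3.42-fold for H2-Aa, H2-Ab1 and H2-Eb1.

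Interferon gamma induces Ciita, in part through IRF1. Of the 6 genes of that route 5 were lower and 1 higher, none called, with a median of -0.02. Irf1 was at 31.6 ± 7.54 CPM over the control mice and 28.5 ± 3.90 CPM over those given anti-IL-17A/F, spanning 1.82-fold over mice, with r = 0.75 with Cd207. Jak1, a kinase of the interferon receptors, was at 354 ± 19.0 and 346 ± 12.3 CPM and had r = 0.62. None of the 6 reached an r of 0.9.

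Among 10 genes of peptide loading and turnover 6 were lower and 4 higher, none called, with a median of -0.03. Ctss and Marchf1 (r = 0.94), which encodes a ubiquitin ligase that sends class II molecules for degradation, followed Cd207, and Marchf1 was at 1.62 ± 0.969 and 1.22 ± 0.241 CPM. Ctsz at 12.1 ± 2.42 and 14.3 ± 3.32 CPM and Lgmn, a lysosomal protease, at 23.9 ± 1.92 and 25.4 ± 1.96 CPM did not follow it (r = -0.23 and -0.17). Marchf8, picked out after its values were seen, had r = -0.84 but spanned only 1.16-fold.

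The MHC class I genes, which nearly all cells express, set the class II chains in contrast. Of 10 class I genes 6 were lower and 4 higher, none called, with a median of -0.03, and r with Cd207 ran from -0.25 to 0.62. H2-K1 was at 1369 ± 117 CPM over the control mice and 1293 ± 143 CPM over those given anti-IL-17A/F, and H2-D1 at 993 ± 88.0 and 942 ± 73.6 CPM (SD, n = 4 each). Tap1 and Tap2, the peptide transporter, were at 230.2 ± 11.3 and 218 ± 24.2 CPM and at 127 ± 15.1 and 134 ± 17.0 CPM. Of the remaining class II chain genes, H2-Oa and H2-Ob had 5 to 36 counts per mouse and H2-Eb2 had 0 to 7, and 3 of the 5 in the table passed the filter, 2 lower and 1 higher, none called.

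Other genes tied to Langerhans cells moved less uniformly, but not all of them mark these cells. The list holds Il34, which encodes the ligand named above, at 163 to 220 CPM. It also holds Epcam, by which the study set epithelial cells apart, at 133 to 217 CPM. Both were picked out after their values were seen, and which cells made their transcripts was not tested. Of the 18 genes of the list 15 were lower and 3 higher, none called, with a median of -0.20. Their r with Cd207 ran from -0.24 to 0.98, with a median of 0.61, and 3 of the 18 reached 0.9. Epcam and Ly75, picked out after their values were seen, had r = 0.13 and 0.52. Spi1, a myeloid transcription factor, was at 2.42 ± 0.986 and 1.64 ± 0.314 CPM in control and anti-IL-17A/F mice, and Runx3, a factor Langerhans cells need, at 9.15 ± 2.60 and 7.22 ± 0.908 CPM. Cx3cr1 was at 8.09 ± 1.49 and 6.28 ± 0.307 CPM, with a log2 fold change of -0.37 (SE 0.14), and Cd24a, which keratinocytes also express, at 129 ± 8.10 and 148 ± 16.0 CPM with 0.20 (SE 0.08). These 2 genes had unadjusted p of 0.025 and 0.031 and an adjusted p of 0.984 by edgeR, so neither passed.

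Genes of co-stimulation and of maturation were lower in 10 of 11 cases, none called, with a median of -0.20. Ccl22, a chemokine of mature dendritic cells, was at 1.57 ± 0.996 and 0.911 ± 0.206 CPM with r = 0.92 with Cd207. Fscn1 at 7.10 ± 2.37 and 4.99 ± 2.01 CPM and Ccr7, the receptor that guides dendritic cells to lymph nodes, at 0.446 ± 0.118 and 0.319 ± 0.123 CPM did not follow Cd207 (r = -0.02 and 0.40). Socs2, a suppressor of cytokine signalling and the gene of the list with a higher value under treatment, averaged 5.68 ± 4.74 and 8.95 ± 3.89 CPM, with a log2 fold change of 0.66 (SE 0.51, edgeR adjusted p = 0.984) and r = -0.48. The 11 genes had a median r of 0.03.

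**Figure D4:**
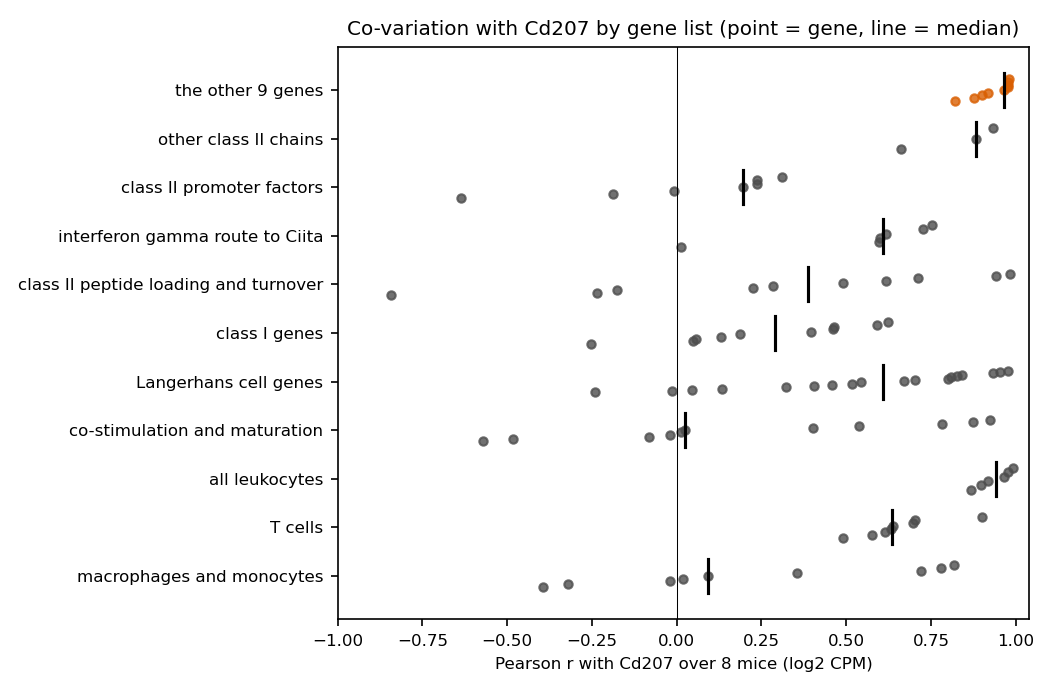
Pearson r with Cd207 over the 8 mice, on log2 CPM (horizontal axis), for the genes of each list that passed the filter (points) and the list's median (line). The other 9 genes lie between 0.82 and 0.98 and the leukocyte genes between 0.87 and 0.99, while the class II promoter factors lie between -0.64 and 0.31 and the class I genes between -0.25 and 0.62.

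Genes shared by all leukocytes moved with the 10 genes. All 6 of them were lower, none called, with a median of -0.39, and their sum was 91.6 to 208 CPM over the control mice and 110.7 to 125 CPM over those given anti-IL-17A/F, lowest in control mouse 1 and highest in control mouse 3. Ptprc, the gene of CD45, was at 28.3, 40.7, 64.5 and 54.8 CPM in control mice 1 to 4 and at 33.2, 34.4, 34.8 and 41.7 CPM in mice 1 to 4 given anti-IL-17A/F. Cd207 relative to Ptprc still ran from 0.171 to 0.336 over the mice, a span of 1.96-fold, with 0.171 to 0.336 in control and 0.175 to 0.291 in anti-IL-17A/F mice. Over the 8 mice r with Cd207 was 0.87 to 0.99 for the 6 leukocyte genes. Without control mice 3 and 4 it ran from 0.27, for Ptprc, to 0.95, for Cd52. The part of the leukocyte share in the levels of the 10 genes was not tested.

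Markers of other cells of skin were measured beside the 10 genes. The 8 genes of T cells, which in mice do not normally make class II, were lower in 8 of 8 cases. Their median log2 fold change was -0.26. They summed to 126 to 197 CPM over the control mice and 124 to 177 CPM over those given anti-IL-17A/F. Their r with Cd207 was 0.49 to 0.90 over the 8 mice. Without control mice 3 and 4 it ran from -0.54, for Trac, to 0.40, for Cd2. The 11 macrophage and monocyte genes summed to 8.30 to 12.4 and 7.60 to 8.87 CPM, with C1qa at 0.279 to 1.09 CPM. Of these genes 9 of 9 tested were lower, with a median log2 fold change of -0.40. The 10 dermal dendritic cell genes summed to 45.5 to 75.3 and 43.4 to 62.0 CPM, of which Itgae, also made by epidermal T cells, was 23.5 to 43.5 CPM, while Xcr1 had 8 to 19 counts per mouse. Of the cells that are not leukocytes, all 5 endothelial genes had higher values under treatment (median log2 fold change 0.38), with a sum of 4.59 to 5.98 CPM in control against 4.43 to 11.7 CPM in treated mice, and Vwf, a gene of vessel walls, had a log2 fold change of 0.72 (SE 0.32). The 6 fibroblast genes were lower in 3 and higher in 3 cases, with a median of -0.0042 and a sum of 17.9 to 36.1 and 23.3 to 42.0 CPM, and Col1a2, a collagen chain, had 0.46 (SE 0.20, unadjusted p = 0.045 and adjusted p = 0.984 by edgeR). Of 6 B cell genes 2 had no count in any mouse, and Blnk made up 17.7 to 27.5 of the summed 18.3 to 27.9 CPM. The 7 keratinocyte genes had r with Cd207 from -0.48 to 0.89, with a median of 0.45. The highest, Krt5, picked out after its values were seen, kept 0.89 without control mice 3 and 4 and spanned 1.34-fold. None of these genes was called, and their part in the levels of the 10 genes was not tested.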

How the data were processed

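Libraries were stranded poly(A) libraries read as single ends. The authors aligned the reads to mm10 with STAR 2.5.2b and deposited raw, unnormalized counts for each Entrez gene from featureCounts and its built-in annotation. A read over several genes was counted for each, multi-mapping reads were left out and duplicates were kept. The strand setting is not stated. Symbols and coordinates (GRCm38) came from RefSeq and GENCODE, and 25275 of 27179 identifiers had a symbol.

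Each mouse had 1 library sequenced in 2 batches. The chi-square statistic per gene between these runs was 0.996 to 1.06, so they were summed. With edgeR 4.0.16 under R 4.3.3, TMM factors were computed, filterByExpr (minimum count 10) kept 16335 genes and a quasi-likelihood fit compared the groups of 4, with Benjamini-Hochberg adjustment over all of them and calls below 0.1, the study's level. The test was checked on simulated data. Correlations used log2 CPM with a prior count of 2. Exon length was the union of RefSeq-linked exons. Alternatives were RLE scaling, no filter, DESeq2 1.42.0, limma-voom (limma 3.58.1), a replicate block, the runs kept apart with a batch term, either batch alone and leaving out each mouse. The study used DESeq2, also asked for a minimum shrunken fold change, and reported epidermal genes changed by the blockade. Its model had an experimental batch too, and which mice that batch grouped is not known from the labels. Per list, up to 4 genes with the smallest p could be named, and others named are said to be chosen after seeing their values. Some genes that this rule takes are not reported here. The 10 genes, the lists and the tests were chosen with earlier results of these data known.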

Additional observations from a re-analysis of the deposited data

How the results depend on the processing

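The count of called genes was 0 by edgeR, and 0 under RLE scaling, without the filter, by limma-voom, in either batch alone and without any 1 mouse. It was 9 by DESeq2 and 9 with the runs kept apart and a batch term. That fit used limma-voom, where each mouse enters as 2 samples whose correlation within the mouse (0.777) is modelled. Of the 10 genes, 8 had a log2 fold change below 0 under every alternative run. The exceptions were H2-DMb1 and Cd86. H2-DMb1 turned to 0.0045 by limma-voom, 0.0039 with the replicate block, 0.041 in batch 2 alone and 0.028 with the runs kept apart, and ranged from -0.065 to 0.084 without 1 mouse. Cd86 turned to 0.14 by limma-voom, 0.080 with the replicate block, 0.064 in batch 1 alone and 0.070 with the runs kept apart, and ranged from -0.36 to 0.37 without 1 mouse. The cause was not tested. The median of the 10 genes lay between -0.35 and -0.21 under the other alternatives and between -0.56 and -0.08 without 1 mouse, and the number below 0 between 8 and 10. The H2-Ab1 to Cd207 difference lay between 0.03 and 0.16 under the other alternatives and between 0.04 and 0.17 without 1 mouse.

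The labels number the mice 1 to 4 in both groups. Same-numbered mice did not deviate together consistently, with correlations of -0.27, 0.25, 0.19 and -0.14 for mice 1 to 4. Correlations between differently numbered mice of the groups ran from -0.31 to 0.30, so the numbers were not taken as pairs. With the replicate block 0 genes were called, and the H2-Ab1 to Cd207 difference had p = 0.25 in an exact sign-flip test. With 4 mice a group and a spread of up to 4.86-fold between mice, differences of the size seen here could not be separated from the spread. Counting error adds to this for Cd86, H2-DMb2, H2-Oa and H2-Ob.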
